A study of Mus musculus with 6 samples.

Results

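The MHC class I presentation genes and immunoproteasome subunits examined here are 10 genes of the 55335 in the deposited count table. They are the heavy chains H2-K1, H2-D1 and H2-Q7, the light chain B2m, the peptide transporter subunits Tap1 and Tap2, the loading chaperone Tapbp, the transactivator Nlrc5, and the proteasome subunits Psmb8 and Psmb9. They were chosen by symbol, and 10 of 10 were found and passed the filter on low counts. RNA was sequenced from CD11b+ cells sorted by flow cytometry from the spleens of wild-type mice. In the MI+RDN group the mice had myocardial infarction (MI) together with renal denervation (RDN), which cuts or destroys the renal nerves, and in the MI group they had myocardial infarction alone. Each group had 3 biological replicates, so all 6 libraries come from infarcted animals. The labels give no strain, sex, age or time after infarction, nor whether mice were pooled.

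Class I molecules sit on nearly all nucleated cells and show peptides from the cell's own proteins to CD8 T cells. The proteasome cuts these proteins in the cytosol, the Tap1-Tap2 transporter moves the peptides into the endoplasmic reticulum, and tapasin (Tapbp) holds the transporter next to empty heavy chains paired with beta-2-microglobulin (B2m). Interferon exchanges the catalytic subunits of the standard proteasome for inducible ones, among them Psmb8 and Psmb9, to form the immunoproteasome. NLRC5 binds no DNA itself and acts through RFX, CREB/ATF and NF-Y factors on a compact promoter element, the SXY module, much as its relative CIITA does for class II genes.

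The promoters of the heavy chains, B2m and Tap1 are shown because letters of the SXY module, the element through which NLRC5 is known to act, can be looked for in them. The sequences are the 250 bases before the RefSeq transcript start on build GRCm38.p6, given 5′ to 3′ on the gene's own strand, and H2-K1 has 2 such starts, of which the more upstream was used. Capitals mark matches on either strand to TGACG, the core of the X2 box and a CREB/ATF site. Likewise marked is CCAAT (the Y box, an NF-Y site, read as ATTGG on the other strand). Also marked are GGGNNTTCC (an NF-kB-type site) and GAAA repeated with any 2 bases between (a strict form of the interferon-stimulated response element). No 2 matches overlapped in the windows printed. The windows are chr17:34000348-34000597 on the minus strand for H2-K1, and on the plus strand chr17:35262844-35263093 for H2-D1, chr17:35438905-35439154 for H2-Q7, chr2:122147437-122147686 for B2m and chr17:34187306-34187555 for Tap1.
H2-K1: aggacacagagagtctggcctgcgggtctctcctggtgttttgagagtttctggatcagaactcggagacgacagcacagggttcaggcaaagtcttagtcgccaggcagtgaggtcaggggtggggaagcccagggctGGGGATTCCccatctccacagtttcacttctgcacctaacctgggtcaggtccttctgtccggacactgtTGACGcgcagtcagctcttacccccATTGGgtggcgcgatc
H2-D1: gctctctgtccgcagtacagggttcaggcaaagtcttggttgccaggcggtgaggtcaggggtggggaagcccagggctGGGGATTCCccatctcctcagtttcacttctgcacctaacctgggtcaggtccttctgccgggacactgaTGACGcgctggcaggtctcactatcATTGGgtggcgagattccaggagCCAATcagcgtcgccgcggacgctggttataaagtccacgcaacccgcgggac
H2-Q7: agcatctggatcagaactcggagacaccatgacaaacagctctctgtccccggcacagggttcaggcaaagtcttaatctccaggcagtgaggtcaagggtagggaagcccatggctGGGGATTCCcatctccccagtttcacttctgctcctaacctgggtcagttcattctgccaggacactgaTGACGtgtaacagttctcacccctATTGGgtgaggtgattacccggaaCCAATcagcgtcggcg
B2m: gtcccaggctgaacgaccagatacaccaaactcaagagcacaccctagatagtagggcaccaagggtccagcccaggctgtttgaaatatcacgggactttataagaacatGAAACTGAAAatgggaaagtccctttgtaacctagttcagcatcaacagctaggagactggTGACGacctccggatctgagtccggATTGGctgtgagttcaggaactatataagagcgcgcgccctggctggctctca
Tap1: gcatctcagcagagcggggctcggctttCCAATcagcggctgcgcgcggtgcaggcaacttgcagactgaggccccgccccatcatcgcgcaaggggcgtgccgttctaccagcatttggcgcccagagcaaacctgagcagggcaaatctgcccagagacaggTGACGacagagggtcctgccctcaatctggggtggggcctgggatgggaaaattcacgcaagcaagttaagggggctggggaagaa

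In H2-K1, H2-D1 and B2m the letters ATTGG followed TGACG after 20 bases, and in H2-Q7 after 19. The TGACG match began 41 bases before the start in H2-K1, 101 in H2-D1, 64 in H2-Q7 and 78 in B2m. This spacing was chosen after the windows were read. With 19 or 20 bases between, on either strand, the pair occurred in 42 of 32851 promoter windows of this length (0.128%), which belong to 37 of 27025 genes. Of the 8 members with a window, 4 held it, a count known beforehand because the spacing was read from these windows. Of these 4, 3 are heavy chain genes that are close relatives, so their windows are not separate cases. The GGGNNTTCC letters stood upstream of the pair in the 3 heavy chains, and 4.98% of all windows hold them. The GAAA repeat was found in B2m alone among the members, and in 2.98% of all windows. Single matches are common, with TGACG in 17.8% and CCAAT in 33.9% of all windows. Tap1 and Psmb9 are transcribed away from each other from starts 226 bases apart, and their windows share 225 bases, so the Tap1 sequence above also holds most of the Psmb9 window. Both TGACG and CCAAT occur there, but not at the class I spacing. Tapbp held 2 CCAAT matches, and the Psmb8 window held no match to these letters. Tap2 and Nlrc5 are named without a sequence. A match describes letters in these windows and does not show that a factor binds.

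**Figure D1:**
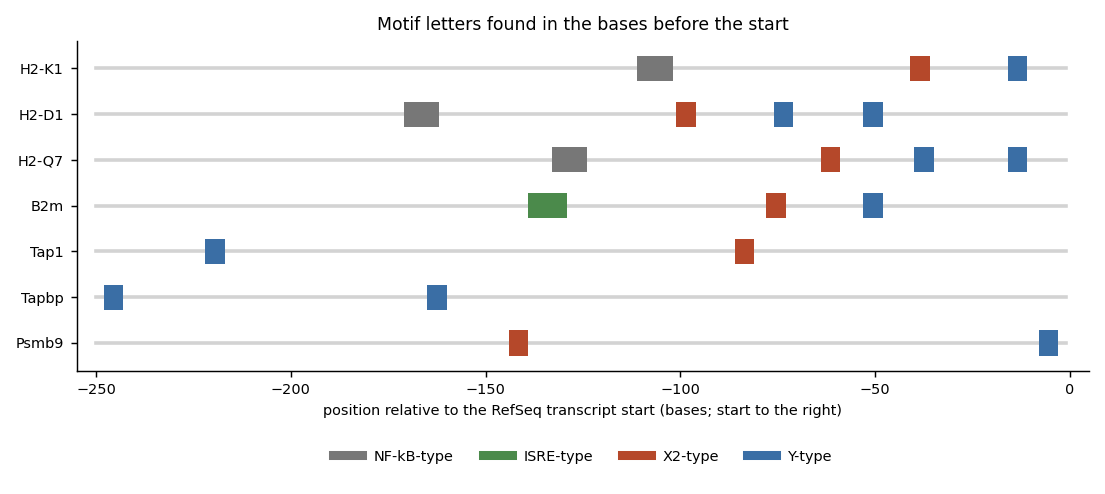
Positions of the motif letters in the 250 bases before the RefSeq start of the 7 members with a match, in bases from the start on the horizontal axis and 1 gene per row. The X2-type and Y-type matches lie side by side in H2-K1, H2-D1, H2-Q7 and B2m, with 19 or 20 bases between them.

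The libraries held 21663440 to 28013900 counts, and 14849 genes passed the filter. Levels are given in CPM, read counts scaled to a common library size adjusted with TMM factors, and fold changes are MI+RDN over MI. A gene is called where edgeR's quasi-likelihood test gives a Benjamini-Hochberg adjusted p under 0.05 over all tested genes. By that rule 150 genes were called, 1.01% of those tested, with 44 higher (0.296%) and 106 lower (0.714%) in MI+RDN. The split depended on the processing, with 62 higher and 413 lower without scaling factors, and 538 higher and 583 lower by DESeq2. Itgam, which encodes CD11b, averaged 1598 ± 95.2 CPM in MI+RDN and 1133 ± 150 CPM in MI (SD, n = 3 each). Its groups were apart and it was not called. The log2 fold change was 0.50, with a 95% interval of 0.18 to 0.81 (adjusted p by edgeR and Benjamini-Hochberg = 0.109). The largest log2 fold change among the members was 0.41. The p-values of edgeR, DESeq2 and limma-voom rest on how much the 3 libraries of a group differ. In each of these tools the spread of a gene is drawn towards that of other genes.

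Of the 10 members, 0 were called by edgeR, against 1.01% of all tested genes, and 0 by DESeq2 or limma-voom. Of the 14849 tested genes, DESeq2 called 1121 and limma-voom 111, so a count by DESeq2 in any list has a larger share behind it. At an unadjusted p under 0.05 there were 3 members by edgeR, 6 by DESeq2 and 3 by limma-voom, where the share of all tested genes was 19.9% by edgeR, 19.8% by DESeq2 and 19.9% by limma-voom. Every member nevertheless had a positive log2 fold change, from 0.20 for Psmb8 to 0.41 for H2-D1, with a median of 0.30 against 0.0080 over all tested genes. The lowest MI+RDN library stood above the highest MI library in 5 members. Groups that do not overlap, in either direction, were found in 26.2% of all tested genes, and with MI+RDN lower in 13.7%. A negative log2 fold change was found in 49% of all tested genes. MI+RDN replicate 3 was the highest of the 6 libraries for 10 of 10 members, where it was highest for 14.96% of all tested genes. Because the RNA is from a mixed population, fewer cells of a type and less RNA per cell cannot be told apart. With only 3 libraries a group, a p that misses the threshold does not show that the groups had the same level.

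**Figure D2:**
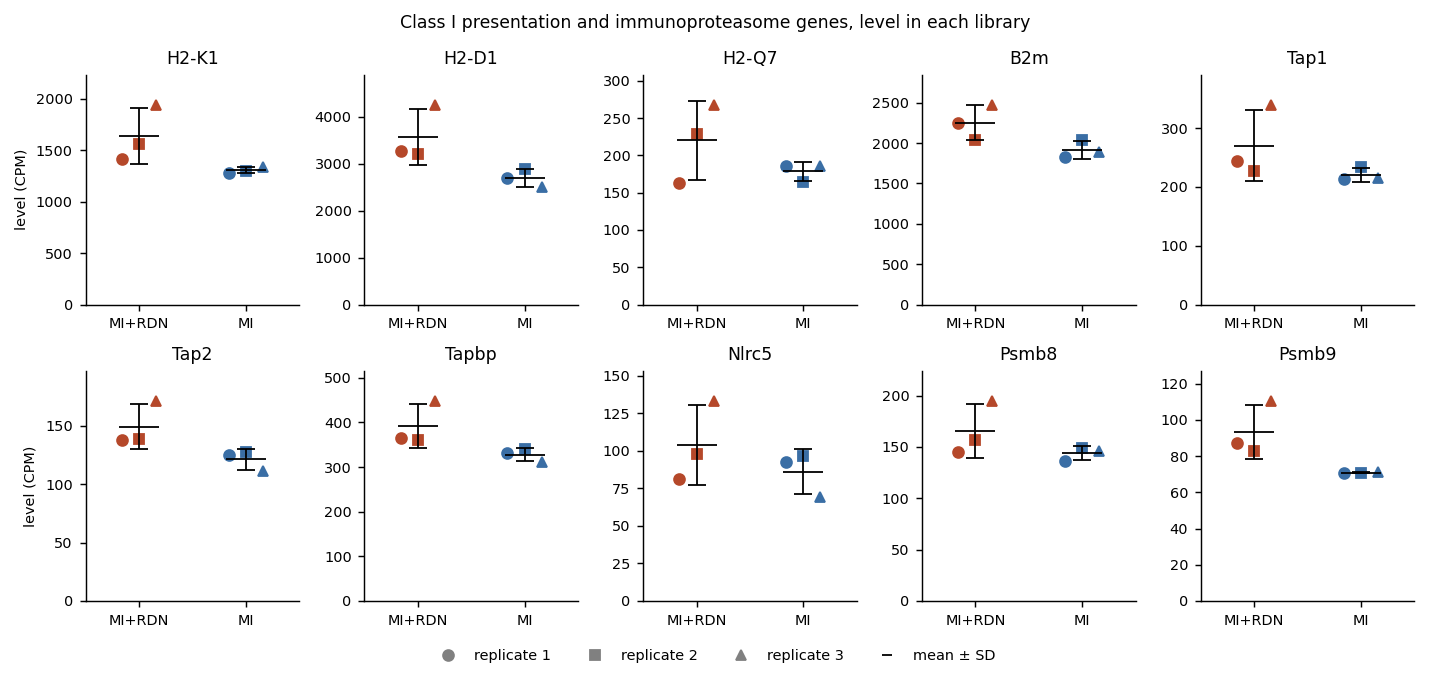
Level of each member in CPM in every library, with MI+RDN left of MI, symbols for the replicate number and bars for the mean ± SD of 3 libraries. MI+RDN replicate 3 (triangle) is the highest point in each of the 10 panels, and the MI libraries lie close together except for Nlrc5.

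H2-K1 and H2-D1 encode the classical heavy chains, which bind peptides and face the T cell receptor. H2-K1 had 1412, 1558 and 1944 CPM in MI+RDN libraries, against 1282, 1298 and 1335 CPM in MI libraries. The groups did not overlap, with an SD of 275 CPM among the MI+RDN libraries and 27.6 CPM among the MI libraries. The log2 fold change was 0.33 (SE 0.15), with an edgeR adjusted p by Benjamini-Hochberg of 0.262. H2-D1 had 3265, 3196 and 4260 CPM in MI+RDN libraries, against 2688, 2884 and 2509 CPM in MI libraries. Here too the groups were apart, and the lowest MI+RDN library stood above the highest MI library. This was the largest fold change among the members, 1.33-fold, with a log2 fold change of 0.41, a 95% interval of 0.031 to 0.78 and an adjusted p by edgeR and Benjamini-Hochberg of 0.219.

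H2-Q7 encodes a Qa-2 molecule, a non-classical class I chain anchored in the membrane by a lipid. It had 163, 229 and 268 CPM in MI+RDN libraries, against 186, 164 and 185 CPM in MI libraries. The groups overlapped, since MI+RDN replicate 1 was the lowest of all 6 libraries. The log2 fold change was 0.30 (SE 0.17, adjusted p by edgeR and Benjamini-Hochberg = 0.371). The heavy chain genes are close relatives, and the handling of reads that fit more than 1 gene is not given in the sources used here. Over their longest coding transcripts H2-K1 and H2-D1 were identical at 91.2% of 1470 aligned bases, H2-K1 and H2-Q7 at 89.7% of 1450, and H2-D1 and H2-Q7 at 90.4% of 1389. Of all stretches of 100 bases in these transcripts, 16.4% in H2-Q7 also occurred in a transcript of another gene, most often of H2-Q6. The share was 4.64% in H2-D1, most often with H2-Q1, and 0% in H2-K1, B2m, Tap1, Tap2, Nlrc5, Psmb8 and Psmb9. The values of H2-Q7 are uncertain for that reason.

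B2m encodes the light chain that every class I heavy chain needs to reach the surface. It had 2245, 2042 and 2478 CPM in MI+RDN libraries, against 1823, 2042 and 1894 CPM in MI libraries. MI+RDN replicate 2 and MI replicate 2 were nearly level, so the groups overlapped. Its log2 fold change of 0.23 had a 95% interval of -0.075 to 0.54 (adjusted p by edgeR and Benjamini-Hochberg = 0.372).

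The transporter and loading genes had similar patterns. Tap1 had 244, 227 and 340 CPM in MI+RDN libraries, against 213, 235 and 215 CPM in MI libraries, and the groups overlapped. Tap2, its partner in the transporter, had 138, 139 and 171 CPM in MI+RDN libraries, against 125, 128 and 111 CPM in MI libraries. Its groups were apart with a log2 fold change of 0.30 (SE 0.11, adjusted p by edgeR and Benjamini-Hochberg = 0.201). Tapbp had 365, 361 and 448 CPM in MI+RDN libraries, against 332, 340 and 312 CPM in MI libraries. Its groups were also apart, with MI+RDN replicates 1 and 2 only slightly above MI replicate 2, and the log2 fold change was 0.26 (adjusted p by edgeR and Benjamini-Hochberg = 0.263). The log2 fold change of Tap1 was 0.29 (SE 0.16, adjusted p by edgeR and Benjamini-Hochberg = 0.341).

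Nlrc5 had 81.3, 97.9 and 133 CPM in MI+RDN libraries, against 92.7, 96.7 and 69.1 CPM in MI libraries. The groups overlapped widely, and this was the member with the widest spread relative to its mean in MI, 86.2 ± 14.9 CPM (SD, n = 3). Its log2 fold change of 0.27 had a 95% interval of -0.18 to 0.73, the widest of the 10 (adjusted p by edgeR and Benjamini-Hochberg = 0.479). It was 0.43 when MI+RDN replicate 1 was left out, 0.041 when MI+RDN replicate 3 was, and between 0.14 (MI replicate 3) and 0.37 (MI replicate 2) when another library was.

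Psmb9, the inducible beta1i subunit, had the lowest p of the members. It had 87.3, 82.6 and 110 CPM in MI+RDN libraries, against 70.8, 70.8 and 71.1 CPM in MI libraries. Every MI+RDN library lay above the MI libraries. The SD of the MI libraries, 0.18 CPM, was smaller than the 1.72 CPM that counting error alone gives. The fold change was 1.32, with a log2 fold change of 0.40, a 95% interval of 0.12 to 0.67 and an adjusted p by edgeR and Benjamini-Hochberg of 0.128 that did not pass. Psmb8, the inducible beta5i subunit, had 145, 156 and 195 CPM in MI+RDN libraries, against 136, 149 and 146 CPM in MI libraries. The groups overlapped, and its log2 fold change of 0.20 was the smallest among the members (adjusted p by edgeR and Benjamini-Hochberg = 0.397).

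The median log2 fold change of the members was 0.14 without MI+RDN replicate 3, where 10 of 10 were still positive and 0 were called by edgeR, with 1 at an unadjusted p under 0.05. Leaving out any other library gave a median of 0.26 to 0.40. With library totals alone and no scaling factors the median of all genes moved to -0.13, and that of the members was 0.16, which is 0.29 above it.

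Expressed per length of the longest coding transcript, B2m was the most abundant member, at 2622 ± 254 CPM per kb in MI+RDN and 2232 ± 130 CPM per kb in MI (SD, n = 3 each). H2-D1 followed at 1700 ± 283 CPM per kb in MI+RDN and 1282 ± 89.3 in MI, and H2-K1 at 1012 ± 170 in MI+RDN and 806 ± 17.1 in MI. H2-Q7 (144 ± 34.8 in MI+RDN, 117 ± 8.16 in MI) and Tapbp (135 ± 16.9 in MI+RDN, 113 ± 4.88 in MI) were within their spread of each other. Psmb8 at 102 ± 15.9 CPM per kb and Tap1 at 91.6 ± 20.6 CPM per kb were likewise within their spread in MI+RDN. Below these came Psmb9 at 69.1 ± 11.02, Tap2 at 43.4 ± 5.56 and Nlrc5 at 13.7 ± 3.51 CPM per kb in MI+RDN. The order of the 10 genes was the same in MI.

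By the root mean square difference of centred log2 CPM over the 6 libraries, among 9322 other genes with a mean of at least 5 CPM, the genes nearest to Nlrc5 were Nek8 (0.093), Elmsan1 (0.10), Ugcg (0.11), Glul (0.12) and Fbxw17 (0.12). The nearest member was Tap2, which ranked 26 at 0.15, followed by H2-D1 at rank 44. The genes nearest to B2m were Tnfaip8l2 (0.028), Atp6v0e (0.036), Chmp4b (0.037), Gatd1 (0.043) and Med4 (0.046). Its nearest member was Tapbp at rank 69. With 6 libraries many genes share such a profile, and the measure is a description.

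Other class I heavy chains showed a median log2 fold change of 0.27 over 11 of 14 tested, with 8 positive and 3 negative, and H2-T3 was at 0 in all 6 libraries. By edgeR 0 were called, with 2 at an unadjusted p under 0.05, and DESeq2 called 1 and limma-voom 0. H2-T23, which encodes Qa-1, the ligand of the NKG2A receptor, averaged 469 ± 94.8 CPM in MI+RDN and 389 ± 25.2 CPM in MI (SD, n = 3 each), with MI+RDN replicate 3 highest at 579 CPM. H2-Q10 had 469, 215 and 401 CPM in MI+RDN libraries, against 383, 437 and 288 CPM in MI libraries, and the groups overlapped fully. The sign of H2-Q10 changed when a single library was left out. Stretches shared with other genes were counted for the members alone, so the levels of these heavy chains may also depend on shared reads.

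The class I-like molecules that also pair with B2m had negative log2 fold changes in 4 of 4, with a median of -0.38. By edgeR 0 were called, with 2 at an unadjusted p under 0.05, whereas DESeq2 called 1 lower and limma-voom 0. Fcgrt, the neonatal Fc receptor, had 29.4, 32.5 and 35.4 CPM in MI+RDN libraries, against 41.0, 44.1 and 61.7 CPM in MI libraries. The groups were apart, in the direction opposite to B2m, with a log2 fold change of -0.59 (SE 0.16, adjusted p by edgeR and Benjamini-Hochberg = 0.109, DESeq2 adjusted p = 0.0223). Hfe, the regulator of iron uptake, had a log2 fold change of -0.16.

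In the endoplasmic reticulum, the genes for peptide loading and trimming showed a median log2 fold change of -0.11 over 9, with 4 positive and 5 negative. By edgeR 0 were called, with 3 at an unadjusted p under 0.05, and DESeq2 called 1 lower and limma-voom 0. Calr, calreticulin, which steadies the empty heavy chain, had 428, 472 and 478 CPM in MI+RDN libraries, against 496, 502 and 575 CPM in MI libraries. Its groups were apart with the MI+RDN libraries lower, and the log2 fold change was -0.19 (adjusted p by edgeR and Benjamini-Hochberg = 0.361). Lnpep, an aminopeptidase of endosomal compartments, had a log2 fold change of 0.0086 whose sign depended on the scaling and the libraries used.

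Other inducible proteasome genes had positive log2 fold changes that did not pass. Psmb10 (beta2i) and the PA28 activator genes Psme1 and Psme2 had log2 fold changes of 0.063, 0.085 and 0.19, with 0 of 3 called and 0 at an unadjusted p under 0.05 by edgeR, DESeq2 and limma-voom. MI+RDN replicate 3 was highest for 3 of 3. The subunits that the inducible ones replace, Psmb5, Psmb6 and Psmb7, had log2 fold changes of 0.19, 0.10 and 0.25. Of these 0 of 3 were called by edgeR, DESeq2 or limma-voom, with 1 at an unadjusted p under 0.05 by edgeR. MI+RDN replicate 3 was highest for 1 of these 3, Psmb5.

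Each inducible subunit was therefore set against its constitutive counterpart within each library as a log2 ratio of CPM, a measure that library scaling hardly touches. These are ratios of RNA and do not show which subunits are built into the proteasome. With 3 libraries against 3 the exact two-sided permutation test cannot go below 0.10, and p was adjusted over 5 ratios. Psmb9/Psmb6 averaged 1.03 ± 0.26 in MI+RDN and 0.75 ± 0.059 in MI (SD, n = 3 each), a difference of 0.28 (exact permutation p = 0.30, Benjamini-Hochberg adjusted 0.38). Psmb10/Psmb7 averaged 0.36 ± 0.19 in MI+RDN and 0.54 ± 0.052 in MI, a difference of -0.18 (exact permutation p = 0.30, adjusted 0.38). Psmb8/Psmb5 averaged 2.37 ± 0.15 in MI+RDN and 2.37 ± 0.13 in MI, a difference of 0.0031 (exact permutation p = 1). In all 3 the groups overlapped, and the 3 differences did not share a sign.

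**Figure D3:**
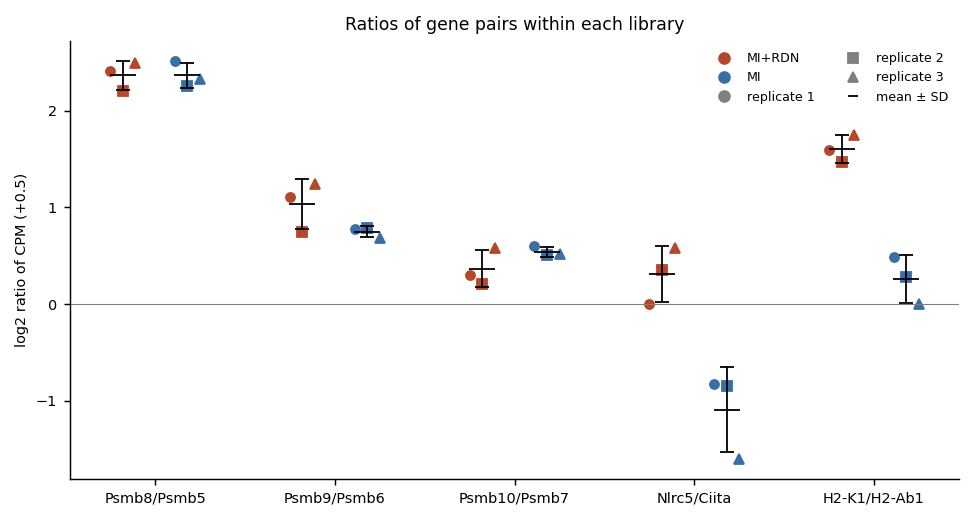
Log2 ratio of 2 genes in each library (CPM with 0.5 added), MI+RDN left of MI for each pair, with bars for the mean ± SD of 3 libraries. The proteasome ratios overlap between the groups, whereas Nlrc5/Ciita and H2-K1/H2-Ab1 are higher in every MI+RDN library than in any MI library.

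The other proteasome lists had medians between 0.0097 and 0.12. The 11 structural subunits of the 20S core showed a median log2 fold change of 0.12, with 0 called by edgeR, DESeq2 or limma-voom and 2 at an unadjusted p under 0.05 by each. Psmb1 averaged 83.4 ± 3.18 CPM in MI+RDN and 77.8 ± 7.10 CPM in MI, and Psma7 averaged 111 ± 6.80 CPM in MI+RDN and 106 ± 7.25 CPM in MI (SD, n = 3 each). The 20 genes of the 19S cap and other activators had a median of 0.0097, with 0 called by these tools and 2 at an unadjusted p under 0.05 by edgeR. Psmd2 and Psmd8 of the cap had log2 fold changes of -0.063 and 0.14. The 5 assembly factors had a median of 0.041, with 0 called by these tools and 1 at an unadjusted p under 0.05 by edgeR. Pomp, the maturation factor, had a log2 fold change of 0.10 and Psmg3 one of -0.40. The 7 cytosolic peptidases, which trim or destroy peptides after the proteasome, had a median of -0.014, with 0 called and 0 at an unadjusted p under 0.05 by these tools. Nrdc and Tpp2 had log2 fold changes of 0.085 and 0.070. Without scaling factors the signs of Psmb6, Psmb10, Psmb1, Psma7, Psme1, Pomp, Nrdc and Tpp2 changed.

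Of the 8 factors that bind the SXY module, 1 was called, and it was lower. Rfx5, the DNA-binding subunit of RFX that class I and class II promoters share, had 23.9, 22.3 and 23.7 CPM in MI+RDN libraries, against 36.0, 35.5 and 45.8 CPM in MI libraries. The groups were well apart and the MI+RDN libraries lay close together. It fell 1.68-fold, with a log2 fold change of -0.75 (SE 0.12, adjusted p by edgeR and Benjamini-Hochberg = 0.0439). The call was lost with limma-voom (adjusted p = 0.0501), with no filter (0.0873), and without any 1 of the 6 libraries, at 0.0710 to 0.135. The other 7 had log2 fold changes from -0.25 to 0.28.

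Interferon receptors and signalling genes showed a median log2 fold change of 0.052 over 15, with 0 called by edgeR, 1 at an unadjusted p under 0.05, 1 called lower by DESeq2 and 0 called by limma-voom. Jak1 averaged 591 ± 80.2 CPM in MI+RDN and 557 ± 48.2 CPM in MI, and Ifngr1 averaged 533 ± 21.3 CPM in MI+RDN and 536 ± 29.7 CPM in MI (SD, n = 3 each). The other interferon-inducible genes had a median of 0.26 over 18 of 19 tested, with 15 positive and 3 negative. By edgeR 0 were called, with 6 at an unadjusted p under 0.05, whereas DESeq2 called 2 higher and limma-voom 0. MI+RDN replicate 3 was the highest library for 16 of 18. Ifit3, an antiviral effector, had 192, 107 and 423 CPM in MI+RDN libraries, against 101, 182 and 76.7 CPM in MI libraries. Its groups overlapped, with replicate 3 far above the other MI+RDN libraries. Irf7, a transcription factor that amplifies interferon, had 357, 280 and 586 CPM in MI+RDN libraries, against 276, 385 and 231 CPM in MI libraries. The library with the highest class I levels was thus also the library with the highest levels of most of these genes, and the part this had in the class I values was not tested.

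**Figure D4:**
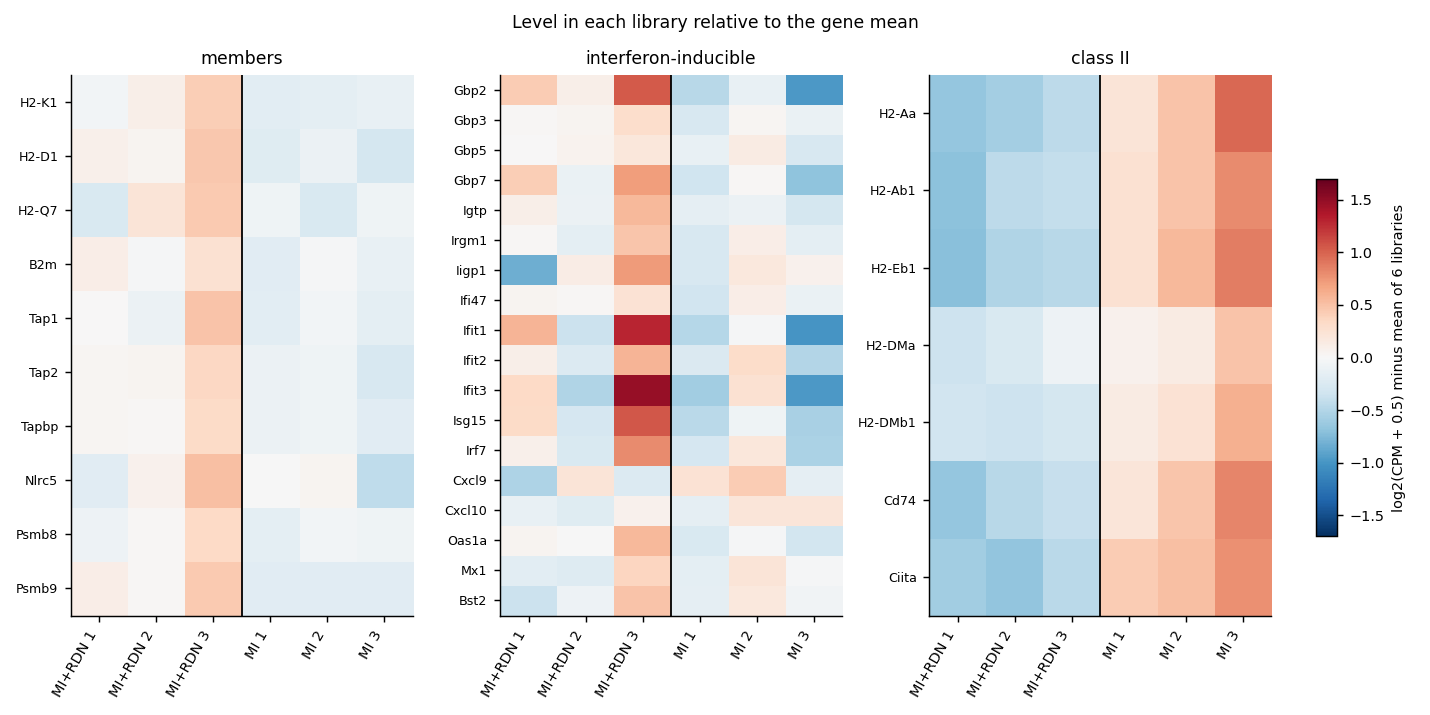
Level of each gene in each library as log2(CPM + 0.5) minus the mean of the 6 libraries, for the 10 members, 18 interferon-inducible genes and 7 class II genes, with MI+RDN libraries left of MI libraries. The members and most interferon-inducible genes are highest in MI+RDN replicate 3, whereas the class II genes are highest in MI replicate 3.

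Class II presentation genes had negative log2 fold changes. Of 7 tested, 4 fell, 0 rose and 3 were not called by edgeR, whereas DESeq2 called 7 lower and limma-voom 4, and MI+RDN lay wholly below MI in 7 of 7 (13.7% of all tested genes), with a median log2 fold change of -1.04 against 0.30 for the class I members. Ciita had 81.0, 76.5 and 89.1 CPM in MI+RDN libraries, against 165, 174 and 211 CPM in MI libraries. It fell 2.23-fold (log2 fold change -1.16, SE 0.12, adjusted p by edgeR and Benjamini-Hochberg = 0.0133). H2-Aa, H2-Ab1 and H2-Eb1, the class II chains, fell with log2 fold changes of -1.15, -1.04 and -1.15. With edgeR, Ciita was no longer called when MI+RDN replicate 1 (adjusted p = 0.0885), MI replicate 2 (0.0736) or MI replicate 3 (0.0623) was left out. The calls of the chains were lost without any 1 library, at 0.0524 to 0.145, and with no filter, at 0.0793 to 0.0849. Nlrc5/Ciita, the ratio of the 2 transactivators, had log2 values of 0.0048, 0.35 and 0.58 in MI+RDN libraries, against -0.83, -0.84 and -1.60 in MI libraries. The groups did not overlap, and their means differed by 1.40 on the log2 scale (exact permutation p = 0.10, the smallest this design allows, adjusted 0.25). H2-K1/H2-Ab1 averaged 1.60 ± 0.14 in MI+RDN and 0.26 ± 0.25 in MI, a difference of 1.35 (exact permutation p = 0.10, adjusted 0.25). The denominators Ciita and H2-Ab1 were themselves called lower, while Nlrc5 and H2-K1 had log2 fold changes of 0.27 and 0.33. These ratios therefore add no separate evidence on the class I genes.

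**Figure D5:**
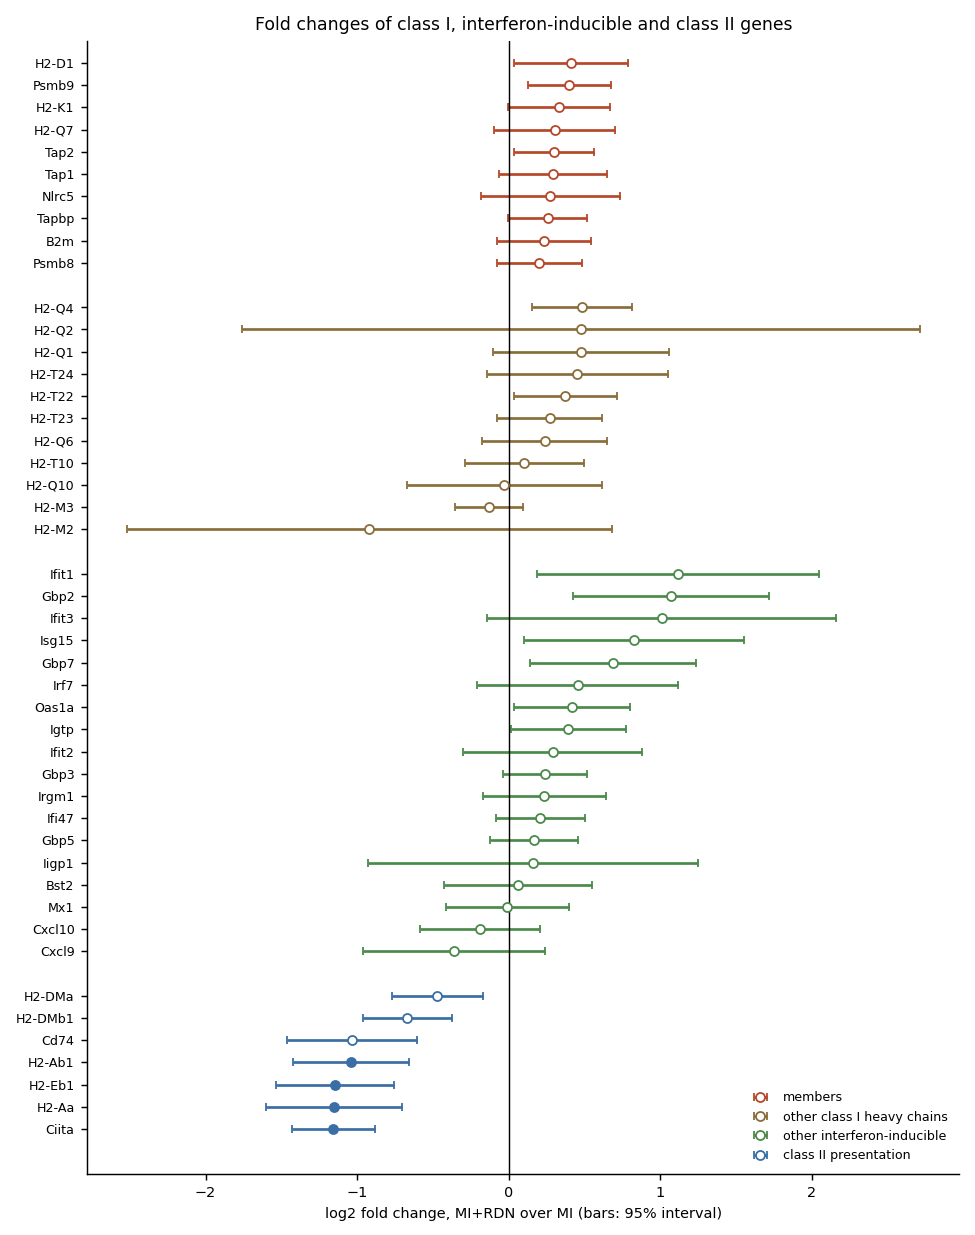
Log2 fold change of MI+RDN over MI with 95% intervals (edgeR) for the members, the other class I heavy chains, the other interferon-inducible genes and class II genes. Filled points passed the adjusted threshold. The members lie between 0.20 and 0.41, and the 4 filled points are all class II genes, below -1.

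Receptors that bind class I molecules showed a median log2 fold change of -0.77 over 5, with 0 called by edgeR, 3 at an unadjusted p under 0.05, 2 called lower by DESeq2 and 0 called by limma-voom. Pirb, an inhibitory receptor of myeloid and B cells, had 1341, 1208 and 1304 CPM in MI+RDN libraries, against 1069, 1152 and 949 CPM in MI libraries. Its groups were apart with MI+RDN higher, at a log2 fold change of 0.28 (adjusted p by edgeR and Benjamini-Hochberg = 0.251). Klrd1 (CD94), found on NK and some T cells, had 13.01, 16.99 and 14.7 CPM in MI+RDN libraries, against 25.2, 22.7 and 28.6 CPM in MI libraries. Its log2 fold change was -0.77 (adjusted p by edgeR and Benjamini-Hochberg = 0.0534, and 0.000484 by DESeq2).

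Marker lists of the cells that the gate could hold differed in how they moved, and their levels below are sums over a whole list. Neutrophil markers were positive in 10 of 10, and their sum was 26171 to 40318 CPM in MI+RDN against 13745 to 21420 CPM in MI. The groups were apart in 6 of 10, each with MI+RDN higher. Of all tested genes, 26.2% were apart in either direction and 13.7% with MI+RDN lower. Ngp had 1385 CPM in MI+RDN replicate 3 and 11481 CPM in MI+RDN replicate 2, against 1640 to 3473 CPM in MI. Ly6g and Retnlg rose by edgeR and by limma-voom, and DESeq2 called 6 higher. The most abundant of the list, S100a9 and Csf3r, had log2 fold changes of 0.99 and 0.34. Conventional DC2 markers were negative in 7 of 7. Cd209a, Clec10a and Zbtb46 fell by edgeR, limma-voom lost Clec10a (adjusted p = 0.0531), and DESeq2 called 4 lower. The sum of the DC2 list was 1102 to 1177 CPM in MI+RDN against 1289 to 1442 CPM in MI. Most of that sum was Sirpa, with a log2 fold change of -0.035, and the next most abundant, Flt3, had one of -0.85. Conventional DC1 markers moved the same way, with 5 of 6 negative and a median log2 fold change of -0.80, against -0.85 for DC2. Of the DC1 markers 0 were called by edgeR or limma-voom, and DESeq2 called 1 lower. By edgeR 5 were at an unadjusted p under 0.05.

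B cell markers were negative in 9 of 10, with 0 called and 9 at an unadjusted p under 0.05 by edgeR, 9 called lower by DESeq2 and 0 by limma-voom. Ighm, the exception, took up most of their sum of 5272 to 11718 CPM in MI+RDN and 4266 to 8081 CPM in MI. The median B cell marker lay at -0.70, -0.72 and -0.015 in MI+RDN replicates 1 to 3 on a log2 scale centred on the mean of the 6 libraries, and at 0.38, 0.23 and 0.78 in MI replicates 1 to 3. T cell markers were negative in 10 of 10, and the sum of the list was 46.6 to 62.8 CPM in MI+RDN against 84.4 to 112 CPM in MI. Cd3d was the 1 T cell marker that fell by edgeR, limma-voom called 0 (adjusted p = 0.0503 for Cd3d), and DESeq2 called 5 lower. The 7 erythroid markers lay at a median of -1.26 on the log2 fold change scale, with 5 negative, 0 called and 5 at an unadjusted p under 0.05 by edgeR, 5 called lower by DESeq2 and 0 by limma-voom. Red pulp macrophage markers were negative in 6 of 8, with a median log2 fold change of -0.54. By edgeR 0 of these were called, with 4 at an unadjusted p under 0.05, and DESeq2 called 3 lower and limma-voom 0. Plasmacytoid DC markers were negative in 3 of 4 tested, at a median of -0.62, and platelet markers in 3 of 5, at -0.27. In these 2 lists 0 were called by edgeR or limma-voom, and DESeq2 called 1 platelet marker lower.

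The monocyte and NK cell lists had medians near 0. Among markers of Ly6C-high monocytes, 3 of 6 were positive and the median log2 fold change was -0.051, and Ly6c2 was the 1 that rose by edgeR, DESeq2 and limma-voom. NK cell markers had a median of -0.026, with 4 of 8 positive and 0 called by these tools, 2 of them at an unadjusted p under 0.05 by edgeR. The edgeR calls of Ly6g, Retnlg, Cd209a, Clec10a, Zbtb46, Cd3d and Ly6c2 were lost with no filter (adjusted p = 0.0530 to 0.0865). They were also lost when any 1 library was left out (0.0523 to 0.136), except those of Ly6g and Retnlg without MI+RDN replicate 2 (0.0481 each). Marker genes beyond the 2 most abundant of a list were named after their values were seen. The part of these markers in the class I values was not tested.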

How the data were processed

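RNA from splenic CD11b+ cells was sequenced from strand-specific TruSeq libraries, per the labels' protocols, and the submitters' processing notes name FastQC 0.11.2, STAR and build GRCm39. The counting tool, annotation release, strand setting and handling of shared reads were not given in the sources used. The authors deposited raw whole-number counts per Ensembl gene. Symbols came from GENCODE M21 (GRCm38) by ID for 55154 of 55335 genes, and Nrdc was matched through its synonym. The main test was run with edgeR 4.0.16 under R 4.3.3 (filterByExpr, TMM, quasi-likelihood F test, all 6 libraries, no covariates), with DESeq2 1.42.0 and limma 3.58.1 as alternatives. The SE of a log2 fold change is its size divided by the root of its F statistic. The common biological coefficient of variation was 20.7%. The procedure was tested on simulated data whose planted changes were all larger than those of the members. That test does not show whether changes as small as those of the members would be called.

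The members and lists were chosen with earlier results of these data known. Named genes are the members, genes in ratios and those nearest to Nlrc5 and B2m. In each list other than those of cell markers they are up to 4 called genes with the lowest p, or otherwise the 2 with the highest mean CPM. The 2 most abundant cell markers were named for the neutrophil and DC2 lists alone. Every cell marker called by edgeR was also named, after its values were seen. Levels per length used the longest coding transcript. Promoters are from RefSeq, GRCm38.p6, and 8 of 10 members matched by symbol. Alternatives were other scaling factors, filters and tests, leaving out single libraries in turn, a fit without haemoglobin, mitochondrial and antigen receptor genes, and a block for the replicate number. Figures used Python 3.11.15 and matplotlib 3.10.9.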

Additional observations from a re-analysis of the deposited data

How the results depend on the processing

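In all 15 alternatives to the reported fit, 10 of 10 members kept positive log2 fold changes and 0 passed the threshold, and the medians of the members ranged from 0.14 to 0.40. The lowest adjusted p of any member was 0.0553, with DESeq2. The number of genes called, 150 in the reported fit, was 475 without scaling factors, 21 without a filter, 1121 with DESeq2, 290 when genes averaged at least 5 CPM, 277 without haemoglobin, mitochondrial and antigen receptor genes, and 0 to 67 when a single library was left out, which reduces the samples in the fit. With the replicate number as a block it was 87, and the adjusted p was 0.0632 for Rfx5, 0.0511 for H2-Aa, 0.0580 for Cd209a, 0.0677 for Clec10a and 0.0950 for Cd3d, whose calls were lost. Deviations of same-numbered libraries from their group means correlated at 0.036, -0.075 and 0.0998, and those of other pairs at -0.16 to 0.14. With 3 libraries a group, these values cannot decide whether the numbers pair the samples.

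The sign changed for genes near 0. Without scaling factors the log2 fold changes were -0.13 for Lnpep, -0.053 for Psme1, -0.032 for Psmb6, -0.078 for Psma7, -0.040 for Psmb1, -0.039 for Pomp, -0.069 for Tpp2, -0.051 for Nrdc, -0.051 for Jak1 and -0.075 for Psmb10. Lnpep was also -0.021 with upper-quartile factors, -0.022 at a mean of at least 5 CPM, -0.0019 with limma-voom, -0.00055 with the block and -0.0044 without haemoglobin, mitochondrial and antigen receptor genes. With 1 library left out, Lnpep ranged from -0.12 to 0.097, H2-Q10 from -0.26 to 0.22, Ifngr1 from -0.049 to 0.029, and the difference in the Psmb8/Psmb5 ratio from -0.059 to 0.086. The other ratios kept their sign with 0 or 1 CPM added and with any 1 library left out. The causes were not tested. The members had 1571 to 99113 counts per library, and the SD from counting alone was below the SD between libraries in both groups for each member except Psmb9 in MI.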
